A study of Schizosaccharomyces pombe with 3 samples.

Results

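The wildtype transcription landscape of the fission yeast *Schizosaccharomyces pombe* was read from the Cy3 channel of an Agilent 2-colour tiling microarray that probes both DNA strands. Members were chosen by dye and genotype alone. They are the 3 wildtype channels among the 6 channels of the series, namely p1087 on 2 arrays and p344 on 1 array. Strain p1087 was hybridised against *dhp1-1* cells (strain p1088) and strain p344 against *din1Δ* cells (strain p1044). All cells were grown at 30°C to log phase in liquid YEA, a rich medium. RNA was depleted of ribosomal RNA, primed with oligo(dT) and random hexamers and copied into cDNA, with wildtype in Cy3 and mutant in Cy5 on every array. The labels give both strains as wildtype, and markers or reporter alleles that either strain may carry are not given in the sources used here. The labels do not say that the p1087 RNAs came from separate cultures. The p344 array has no replicate, so each strain difference rests on 2 arrays against 1.

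Fission yeast genes lie close together on both strands of 3 chromosomes, and neighbouring genes often run in opposite directions. Most of the genome is open chromatin that RNA polymerase II transcribes. Centromeric repeats, chromosome ends and the silent mating type genes are packed in heterochromatin, which carries methylated lysine 9 of histone H3 and holds transcription low. The Clr4 complex writes this mark, HP1 proteins bind it, SHREC removes acetyl groups from histones, and the RNAi machinery turns repeat transcripts into short RNAs that lead Clr4 back to the repeats. Because both strands of such repeats can be transcribed, the balance between strands is of interest beside the level.

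Each array carried 174063 numbered probes with 1 spot each. Probe sequences and positions were not used here, and probes are named by number, with odd and even numbers lying on opposite strands. A probe was called transcribed where the scanner software had flagged its Cy3 spot as well above background. The term stands for flagged signal, and whether that signal came from transcripts of the probed strand was not tested. The median spot intensity was 207.5 and 331.5 in p1087 replicates 1 and 2, against 277.0 in p344, over a median local background of 50 and 101.0 in p1087 and 69.0 in p344. None of these Cy3 spots reached saturation. Precision is set by there being only 3 arrays. On each array 300 probes had 6 further spots apiece, and the median SD over these spots was 0.15 and 0.19 log2 units in p1087 and 0.14 in p344. All 6 spots carried the same flag for 85.3% and 81.7% of these probes in p1087 and for 86.3% in p344. Of the 810 negative control spots, 0.988% and 1.11% were flagged in p1087 and 0.617% in p344. Of 1577 probes whose names begin with rTm or randTm, 24.4% and 13.0% were flagged in p1087 and 21.9% in p344, and what these were designed for is not given in the sources used here. On the Cy5 channel of the same arrays, 84.3% and 71.0% of the numbered probes were flagged for *dhp1-1* and 66.1% for *din1Δ*.

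The arrays do not split by strain. p1087 replicate 1 and p344 lay on 1 slide, and p1087 replicate 2 lay on the other slide. After quantile normalization of the 3 Cy3 channels, signals of p1087 replicate 1 correlated at 0.978 with p344 and at 0.943 with p1087 replicate 2, and p1087 replicate 2 correlated at 0.947 with p344. These are descriptions across probes, which are not independent replicates. The same flag was given to 91.1% of the probes in p1087 replicate 1 and p344, to 87.4% in the p1087 replicates and to 89.0% in p1087 replicate 2 and p344. Slide and strain are thus partly confounded. p1087 replicate 1 minus p344 is a difference within 1 slide, and p1087 replicate 2 minus p344 is one between slides.

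Most probes of both strands were called transcribed. On odd-numbered probes, 71.6% and 67.3% were transcribed in p1087 replicates 1 and 2, against 67.3% in p344. On even-numbered probes the shares were 71.6% and 66.9% in p1087, against 66.9% in p344. The strands of an array were closer to each other than the p1087 replicates were, and p344 was close to p1087 replicate 2 on both strands. A set of 105614 probes, 60.7% of all, was transcribed on all 3 arrays, and 40205 probes, or 23.1%, on none. The median log2 level, with the normalized Cy3 signal averaged over arrays, was 9.58 for probes transcribed on all 3 arrays and 6.57 for those transcribed on none. Most of the signal came from few probes. The brightest 10% of the probes held 71.3% and 71.5% of the background-corrected signal in p1087 and 75.6% in p344.

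Neighbouring odd and even probes were compared to ask how often both strands were transcribed at 1 place. Both probes of a pair were transcribed for 51.5% and 46.5% of the 87031 pairs in p1087 and 45.9% in p344. A probe on 1 strand only was transcribed for 40.4% and 41.5% of the pairs in p1087 and 42.7% in p344, and neither for 8.17% and 12% in p1087 and 11.5% in p344. With most probes of each strand flagged, many pairs have both flagged even if the strands are unrelated. The shares of pairs were not compared with that expectation. A flag on both strands does not make the strands equal, as the levels described further on show. On all 3 arrays alike, 36.2% of the pairs were transcribed on both strands, 26.4% on 1 strand and 6.80% on neither.

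Genes could be placed on the probe numbers for a list of silencing factors. The study lists a ratio for each of 36 genes, and each listed pair of values was matched, to within 1e-07 on the log2 scale, by the mean ratio over a run of every other probe. This places the run and adds no level. For 10 genes several overlapping runs matched, shifted by a few probes, and the first was used. The runs of 33 neighbouring pairs of genes all followed the gene order of the assembly ASM294v3, from chromosome II through III to I. Probe spacing changed along the array. Between *clr3* and *ipi1*, 60.3 probe numbers fell on each protein-coding gene passed, against 9.54 between *epe1* and *red1*. A least-squares change point in the step between same-strand neighbours set the boundary at probe 147151, so that 84.5% of the numbers are densely tiled and hold 19 placed genes of 9 to 84 probes. The remaining numbers are sparsely tiled and hold 17 genes of 1 to 9 probes. Lengths in probes are therefore given for each tiling density.

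Transcribed runs were mostly short, with a long tail. In the densely tiled numbers, a run of transcribed probes on the odd strand had a mean length of 6.58 and 6.20 probes in p1087 and 5.90 in p344. On the even strand the mean length was 6.55 and 6.07 probes in p1087 and 5.86 in p344. The median was 2.0 probes on either strand of every array, and runs of 1 probe made up 41.2% to 42.5% of the runs in p1087 and 43.6% to 44.9% in p344. Yet most transcribed probes lay in long runs. Runs of 10 or more probes held 67.9% to 71.1% of the transcribed probes in p1087 and 67.7% to 67.8% in p344. Runs of 30 or more probes numbered 338 to 431 per strand in p1087 and 340 to 360 in p344. Untranscribed runs were shorter, with a mean of 2.60 to 3.03 probes in p1087 and 2.89 in p344, and those of 10 or more held 14.8% to 24.2% of the untranscribed probes in p1087 and 19.5% to 20.1% in p344. In the sparsely tiled numbers the mean transcribed run was 4.41 to 4.99 probes in p1087 and 4.24 to 4.46 probes in p344. The lengths depend on single dim probes, and with gaps of 1 probe bridged the mean over the 3 arrays was 12.4 probes on the odd strand, against 6.23 unbridged.

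The longest stretch transcribed without a gap on all 3 arrays held 147 odd-numbered probes, from 17677 to 17969, between *clr4* and *air1*. Its mean level was 14.10 and 12.60 log2 in p1087 replicates 1 and 2, against 14.28 in p344, so that the p1087 replicates lay farther apart than p1087 replicate 1 and p344. The opposite strand there was at 9.64 and 10.35 in p1087 and 10.57 in p344, and 88.4% and 85.7% of its probes were transcribed in p1087 and 86.4% in p344. The longest such run of even-numbered probes held 131 probes, from 108544 to 108804 between *stc1* and *chp2*, at 10.69 and 10.09 log2 in p1087 and 10.44 in p344. Here the opposite strand was near the level of untranscribed probes, at 6.96 and 7.11 log2 in p1087 and 7.08 in p344, with 32.8% and 28.2% of its probes transcribed in p1087 and 26.0% in p344. On single arrays, the longest runs of p1087 replicate 1 held 170 odd and 185 even probes and those of p344 held 161 odd and 139 even probes. p1087 replicate 2 stood apart, with runs of 313 odd and 309 even probes that start at 113987 and 113986, after *las1*. The longest run silent on all 3 arrays held 47 even-numbered probes, from 41100 to 41192 between *atf1* and *clr1*, and overlapped the longest silent run of odd-numbered probes, from 41147 to 41221.

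The transcribed share was even along the chromosomes and fell at few places. Over 26 intervals between placed genes within a chromosome, it ranged from 69.9% to 75.8% in p1087 replicate 1, from 62.7% to 72.7% in replicate 2 and from 65.4% to 71.1% in p344. Over the 4 intervals that hold an end of the array or the step between chromosomes, it was 61.0% to 69.3% and 56.9% to 64.9% in p1087 and 55.1% to 64.6% in p344. On each array, the highest of these 4 values lay below the median of the other intervals. In windows of 1000 probe numbers the lowest share was found at the start of the array, before *clr3*, with 37.7% and 30.8% in p1087 and 32.2% in p344 over probes 1001 to 2000. Further low windows were 112001 to 113000, after *las1*, with 42.6% and 35.1% in p1087 and 36.9% in p344, and 41001 to 42000, between *atf1* and *clr1*, with 48.3% and 49.0% in p1087 and 42.8% in p344. The window 53001 to 54000, in the same interval, had 55.7% and 50% in p1087 and 45.4% in p344. The window around 141500, between *ipi1* and *epe1*, had 56.1% and 58.3% in p1087 and 50.2% in p344. Near the end of the array, the window around 173500 had 57.0% and 52.9% in p1087 and 50.4% in p344. p1087 replicate 1 had the highest share in 167 of 174 windows, so that its greater share was spread along the whole array.

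**Figure D1:**
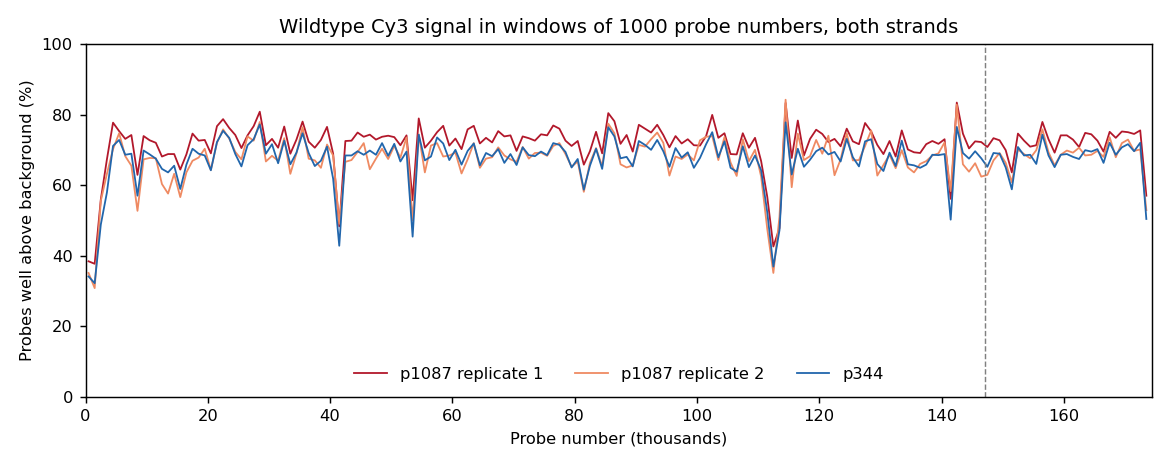
Percentage of numbered probes well above background (y axis) in windows of 1000 probe numbers (x axis, in units of 1000), for the wildtype Cy3 channel of p1087 replicate 1, p1087 replicate 2 and p344; the dashed line marks probe 147151, where the tiling becomes sparse. The 3 lines dip together at the start of the array, and again from 41001, 53001 and 112001, where the lowest windows have 30.8% to 55.7% of probes transcribed. Further dips lie in the windows around 141500 and 173500, with 50.2% to 58.3%.

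Strand asymmetry was measured in 4351 blocks of 40 probe numbers, as the mean log2 level of the 20 odd probes minus that of the 20 even probes. Different probes stand on the 2 strands, and probes differ in how well they hybridise, so a difference is one of mean probe signal. The median size of the difference was 1.77 and 1.46 log2 units in p1087 replicates 1 and 2, against 1.66 in p344. The strands lay within 2 log2 units of each other in 56.2% and 65.5% of the blocks in p1087 and 59.2% in p344. Odd probes were higher by more than this in 22.7% and 17.7% of the blocks in p1087 and 21.2% in p344, and even probes in 21.0% and 16.8% in p1087 and 19.5% in p344. Neither strand dominated, as the median signed difference was 0.02 and 0.03 in p1087 and 0.03 in p344. The typical block had a higher strand at 9.53 and 9.35 log2 in p1087 and 9.47 in p344, and a lower strand at 7.61 and 7.72 in p1087 and 7.67 in p344.

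The direction of the asymmetry was shared by the arrays. The same strand was higher on all 3 arrays in 4091 blocks, or 94.0%, and the 260 other blocks had nearly equal strands, with a median difference of 0.17 log2 units. In 1426 blocks, 32.8% of all, the strands were over 2 log2 units apart on every array, 737 of them with odd and 689 with even probes higher, and in none of the 4351 blocks did arrays pass this limit in opposite directions. The strand difference changed between arrays by a median of 0.31 between the p1087 replicates, 0.16 between p1087 replicate 1 and p344 on 1 slide, and 0.23 between p1087 replicate 2 and p344. In the sparsely tiled numbers a block spans more genes, and 85.4% and 91.7% of the blocks there had strands within 2 log2 units in p1087, and 87.9% in p344.

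The most asymmetric block by the smallest of its 3 differences was 65161 to 65200, between *atf1* and *clr1*. Its odd strand was at 13.84 and 13.85 log2 in p1087 and 14.16 in p344, against 8.73 and 8.93 on the even strand in p1087 and 9.30 in p344. Of the opposite kind, block 83521 to 83560, between *cdc20* and *sir2*, had its even strand at 12.79 and 13.05 in p1087 and 12.94 in p344, and its odd strand at 7.98 and 8.33 in p1087 and 8.08 in p344. The groups of arrays overlapped on both strands of the second block. In 185 blocks at least 90% of the probes of both strands were transcribed on every array, and the median difference between their strands was still 1.91 log2 units, with 83 of these blocks past 2 log2 units on all arrays. Blocks with at least 90% of probes transcribed on 1 strand and at most 10% on the other, on every array, numbered 6.

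Long stretches in which the strands were alike were few. Single blocks with strands within 2 log2 units on all 3 arrays were common, with 2360 of the 4351 blocks, or 54.2%. Runs of 8 or more successive densely tiled blocks with strands within 2 log2 units on all 3 arrays numbered 14, and their 205 blocks made up 5.57% of the densely tiled blocks. The limit of 8 blocks was chosen with earlier results of these data known. In these stretches 56.8% and 53.4% of the probes were transcribed in p1087 and 49.8% in p344, against 72.4% and 67.9% in the other densely tiled blocks in p1087 and 68.1% in p344. A block dim on both strands readily meets the rule of like strands, so a lower share is partly built into the choice of stretches. The longest, with 48 blocks, was 140601 to 142520 between *ipi1* and *epe1*, and the next, with 34 blocks, was 40401 to 41760 between *atf1* and *clr1*. In the gene table of ASM294v3, counting tRNA genes with at most 2 other genes between neighbours, the largest tRNA cluster of chromosome III, with 11 genes, lies between *ipi1* and *epe1*, and that of chromosome II, with 12 genes, lies between *atf1* and *clr1*. Fission yeast centromeres are known to be flanked by tRNA genes. That these stretches belong to centromeres rests on this gene order alone and was not tested.

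The stretch from 140601 had probes called transcribed on both strands, at mean levels close to 8.10 log2, the median of all probes averaged over the arrays. Its odd strand was at 7.97 and 8.14 log2 in p1087 and 7.86 in p344, and its even strand at 7.97 and 8.17 in p1087 and 7.88 in p344. Probes transcribed made up 67.3% and 69.1% in p1087 and 59.8% in p344. The stretch from 40401 had an odd strand at 7.73 and 7.92 in p1087 and 7.66 in p344, an even strand at 7.67 and 7.80 in p1087 and 7.60 in p344, and a transcribed share of 51.8% and 52.6% in p1087 and 43.7% in p344. In both stretches the level of p344 lay below both p1087 arrays on either strand, by less than the distance between the p1087 replicates. The transcribed share of p344 lay below both p1087 arrays by more than that distance, and this was not tested. Over the 14 stretches, the transcribed share of p344 was below both p1087 arrays in 6 and above both in 0, while p1087 replicate 1 had the highest share in 11.

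A different picture was found from 113761 to 114440, after *las1*. There the strands were alike at high levels, with the odd strand at 10.57 and 11.53 log2 in p1087 and 10.92 in p344 and the even strand at 11.18 and 11.79 in p1087 and 11.05 in p344. The tile with the highest p1087 mean of the array lay next to it, on even numbers from 114521, at 15.96 and 15.54 in p1087 and 15.96 in p344. The 4 stretches at the start of the array between probes 1 and 2240 were in contrast dim on both strands, with 14.5% to 43.0% of probes transcribed in p1087 and 16.5% to 40.2% in p344.

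**Figure D2:**
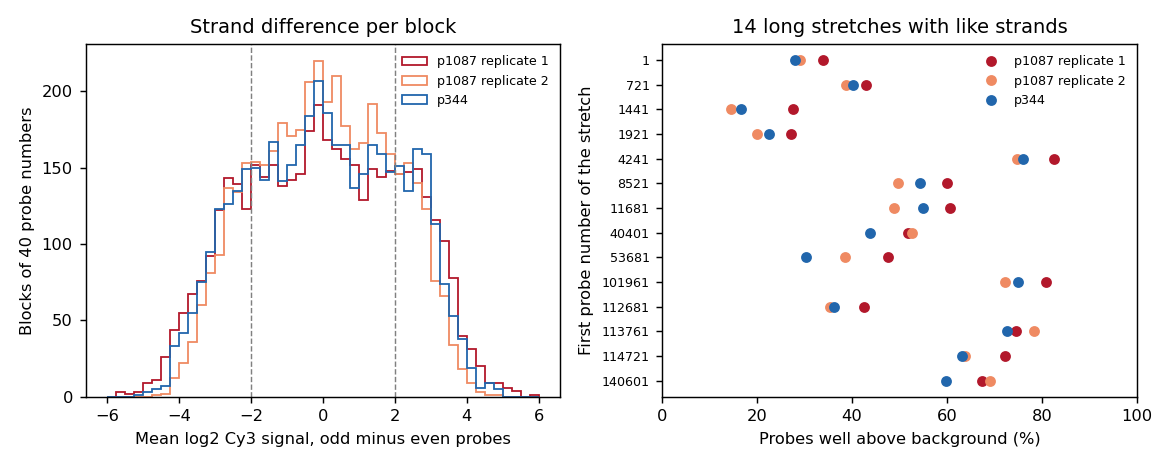
Left, number of blocks of 40 probe numbers (y axis) by the mean log2 Cy3 signal of odd minus even probes (x axis) on each of the 3 wildtype channels, with dashed lines at 2 log2 units on either side. Right, percentage of probes well above background (x axis) in each of the 14 stretches of 8 or more blocks with like strands, named by first probe number (y axis); the stretch from 1441 has the lowest share, at 14.5% in p1087 replicate 2.

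Stretches silent on both strands were rare. A block was called silent where at most 10% of the probes of either strand were transcribed on any of the 3 arrays. This held for 18 blocks, or 0.414% of the blocks, in 12 stretches, all of them densely tiled, while the median block had 70.0% of its probes transcribed. Of the 18 blocks, 13 lay in the stretches with like strands, whose rule a block dim on both strands readily meets. The longest silent stretch had 4 blocks, 141401 to 141560 between *ipi1* and *epe1*, inside the longest stretch with like strands. In it 6.25% and 7.5% of the probes were transcribed in p1087 and 7.5% in p344, at mean levels of 6.50 and 6.56 log2 in p1087 and 6.56 in p344. Within 400 numbers on either side, 63.9% of the probes were transcribed over the arrays.

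The next longest had 3 blocks, 41081 to 41200 between *atf1* and *clr1*, with 4.17% and 2.5% of probes transcribed in p1087 and 5.83% in p344, and a further silent block from 41001 lay just before it. Its mean level was 6.41 and 6.34 log2 in p1087 and 6.41 in p344, and 50.1% of the probes of its flanks were transcribed. Between the same genes, the silent block from 53841 had 2.5% and 2.5% of probes transcribed in p1087 and 0% in p344, with 62.1% in its flanks, and that from 55121 had 7.5% and 7.5% in p1087 and 5.0% in p344, with 73.8% in its flanks. The start of the array, before *clr3*, held 5 silent blocks in 4 stretches and the numbers that follow *las1* held 3. Among the lowest shares were those of block 2161 to 2200, with 0% and 0% in p1087 and 2.5% in p344. A share of 0 in a block of 40 probes says only that no spot passed the flag on these arrays, and no block was at 0 on both strands on all 3 arrays. Mean levels over the 12 stretches were 6.27 to 6.55 in p1087 replicate 1, 6.20 to 6.56 in replicate 2 and 6.29 to 6.57 in p344. These ranges overlap because only blocks silent on every array were taken, so they do not compare the strains.

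The 36 placed genes gave a check of strand. For the 35 genes with probes of the opposite strand between the ends of their run, the placed run was higher than the opposite strand on all 3 arrays. The runs were placed from ratios of mutant to wildtype, with wildtype as the denominator, and not from the wildtype level itself. The median difference was 2.61 log2 units, with a range of 0.60 to 4.64, and the median level was 9.87 log2 for the sense run and 7.37 for the opposite strand. All probes of the sense run were transcribed on all 3 arrays for 19 genes. Locus names of this species end in "c" for genes on the complementary strand. In the densely tiled numbers 10 genes with "c" lay on even and 6 without it on odd probes, with 3 exceptions, while in the sparsely tiled numbers 8 with "c" lay on odd and 8 without it on even probes, with 1 exception. Odd and even numbers therefore keep opposite strands apart but do not mark the same strand throughout the array.

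Actin (*act1*) was the brightest, at 15.05 and 14.96 log2 in p1087 and 15.10 in p344 over 15 probes. All 14 probes of its opposite strand were transcribed too, at 9.78 and 10.83 log2 in p1087 and 10.58 in p344, which leaves a strand difference of 4.64. After *act1*, the highest levels among genes with 5 or more probes were those of *rix1*, *ipi1*, *red1* and *mmi1*. *rix1*, which encodes a subunit of a complex that acts in ribosome assembly and joins heterochromatin, was at 11.80 and 11.70 in p1087 and 11.29 in p344. *ipi1*, a subunit of the same complex, was at 11.36 and 11.35 in p1087 and 11.10 in p344. Of the 5 genes of the Rix1 complex and its partners, mean p1087 was above p344 for 3 and below it for 2. *red1* and *mmi1*, which act in the removal of meiotic transcripts, had means over the 3 arrays of 10.68 and 10.58 log2, with an SD of 0.14 and 0.08 over the arrays. Probes differ in how well they hybridise, so this order is one of mean probe signal.

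The lowest levels among genes with 5 or more probes were those of *tas3*, *dcr1*, *clr4*, *chp1* and *ccq1*. *tas3*, a subunit of the RITS complex that carries short RNAs to chromatin, was at 8.54 and 8.17 in p1087 and 8.61 in p344. *dcr1*, which encodes the nuclease Dicer that cuts double-stranded RNA, was at 8.81 and 7.96 in p1087 and 8.86 in p344, with p1087 replicate 2 apart from the other arrays. *clr4*, the histone H3 lysine 9 methyltransferase, was at 8.73 and 8.67 in p1087 and 8.89 in p344. *chp1*, another RITS subunit, was at 9.32 and 8.83 in p1087 and 9.33 in p344, and *ccq1*, which joins SHREC to telomeres, at 9.54 and 8.58 in p1087 and 9.38 in p344. For *dcr1*, *chp1* and *ccq1* alike, p1087 replicate 2 was the lowest array. p344 was above both p1087 arrays for *dcr1* and *chp1*, close to p1087 replicate 1, and between them for *ccq1*.

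The strands were closest at *clr2*, *clr4* and *tas3*. *clr2*, a SHREC subunit with 4 probes, was at 8.38 and 7.70 in p1087 and 8.35 in p344, against 7.61 and 7.40 on the opposite strand in p1087 and 7.61 in p344, a mean difference of 0.60. The difference was 1.15 for *clr4* and 1.48 for *tas3*. By group, mean sense levels were 8.76 to 10.48 for genes of the Clr4 complex, from *clr4* to *stc1*, 8.14 to 9.87 for the 5 of SHREC, 9.85 to 11.48 for the HP1 proteins and *epe1*, 8.44 to 9.87 for the RNAi genes *tas3*, *dcr1*, *chp1*, *ago1* and *rdp1*, 9.71 to 11.30 for the 5 RNA elimination genes, 9.22 to 11.60 for the 5 of the Rix1 complex and its partners and 10.54 to 11.27 for the 3 DNA-bound factors. *cid14*, which encodes a poly(A) polymerase of the TRAMP complex and was listed with the RNAi genes, had a mean sense level of 11.86. The group ranges overlap in part, and no test was made between groups. Opposite strands were above 9 log2 for 2 genes, *act1* and *swi6*. The opposite strand of *swi6*, which encodes an HP1 protein, was at 9.60 and 9.54 in p1087 and 9.78 in p344 over 2 probes, and *swi6* is among the genes whose run may be shifted by a few probes.

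**Figure D3:**
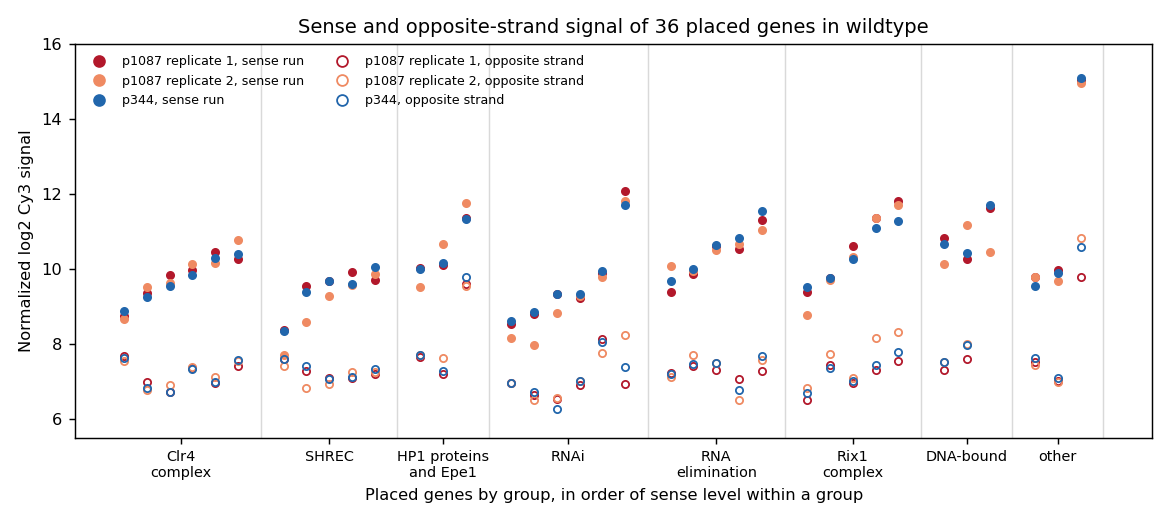
Normalized log2 Cy3 signal (y axis) of the sense run (filled) and the opposite strand (open) of the 36 placed genes, grouped by role, with *cid14* among the RNAi genes, and ordered by sense level within a group (x axis), for p1087 replicate 1, p1087 replicate 2 and p344. Filled points lie above open points for each of the 35 genes that have both, and the brightest gene is at 14.96 to 15.10.

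The strains were compared to ask whether the wildtype of the *dhp1-1* arrays and that of the *din1Δ* array had the same transcription landscape. Means were taken in 8702 tiles, each of 20 probes of the same strand, and over the strands of the placed genes, and p1087 minus p344 was tested with limma and Benjamini-Hochberg adjustment over the 8773 features. None passed an adjusted p under 0.05, that is 0%, with 1 residual degree of freedom from the p1087 replicates and the rest of the spread borrowed across features. The p1087 replicates lay on different slides, so the spread that the test uses includes any difference between slides. It cannot be told apart from the spread between RNAs of the strain. At an unadjusted limma p under 0.05 there were 69 of the 8773 features, all of them tiles, and the lowest unadjusted p was 1.5e-04. This share is below the 0.05 that the threshold alone would give without any difference. A missed threshold does not show that the strains are alike, but most differences were small. In 95.4% of the tiles the strains lay within 0.5 log2 units, and the SD of the difference over tiles was 0.25. It was 0.40 for p1087 replicate 1 minus replicate 2, 0.22 for replicate 1 minus p344 and 0.40 for replicate 2 minus p344.

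Among the placed genes, p1087 was above p344 for 15 sense runs and below it for 21, with a median difference of -0.08 log2 units, against 0.00 over all tiles. Of the 36 sense runs none had an unadjusted p under 0.05. The highest difference was 0.46 for *rix1* (standard error 0.22), where p344 lay below both p1087 arrays. It was 0.16 with median scaling and -0.06 with the scanner's processed signal, so that its direction depends on the scaling. The lowest was -0.66 for *pcr1* (standard error 0.53), which encodes a transcription factor and was read by 1 probe, at 11.63 and 10.46 in p1087 and 11.71 in p344. For *dcr1* it was -0.48 (standard error 0.41). For *pcr1* and *dcr1* the difference came from p1087 replicate 2, since p1087 replicate 1 minus p344 was -0.08 and -0.06. p1087 was below p344 for the RNAi genes *tas3*, *dcr1*, *chp1*, *ago1* and *rdp1*, with differences of -0.06 for *ago1* to -0.48 for *dcr1*, and none of them passed the test. p1087 replicate 1 lay close to p344 for *tas3* (8.54 and 8.61), *chp1* (9.32 and 9.33), *ago1* (9.23 and 9.32) and *rdp1* (9.89 and 9.94). The direction was not particular to RNAi genes. p1087 was also below p344 for 4 of 5 SHREC and 4 of 5 RNA elimination genes, and above it for 5 of 6 genes of the Clr4 complex. For *cid14*, singled out after its values were seen, the difference was 0.25.

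Some tiles stood apart from p344 on both p1087 arrays. Both p1087 arrays were over 1 log2 unit above p344 in 10 tiles, or 0.115% of the tiles, and over 1 log2 unit below it in 4 tiles, or 0.0460%. None passed the adjusted threshold, and they were singled out after their values were seen. They fell into few places. Before *ago1*, the even tile from 116881 was at 9.51 and 9.60 log2 in p1087 and 6.94 in p344, a difference of 2.61 (standard error 0.21, adjusted p = 1.0 from limma). In this tile 16 and 17 of the 20 probes were transcribed in p1087 and 5 in p344. The odd tile from the same number was at 8.52 and 8.62 in p1087 and 6.98 in p344, with 18 and 18 probes transcribed in p1087 and 5 in p344. The odd tile from 116841 was at 9.49 and 9.51 in p1087 and 7.97 in p344, and the even tile from 116921 at 11.54 and 11.92 in p1087 and 10.50 in p344. On both strands there p344 was the lowest of the arrays. The genes under these tiles were not established.

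The 4 tiles in which p1087 was the lower lay after *las1*. Odd tiles from 113681, 113721 and 113761 follow each other. The first was at 8.68 and 8.74 log2 in p1087 and 10.62 in p344, a difference of -1.92 (standard error 0.21). The second was at 7.92 and 8.04 in p1087 and 9.89 in p344, and the third at 7.13 and 7.33 in p1087 and 8.91 in p344. In the third tile 9 and 8 probes were transcribed in p1087, against 20 in p344, so that every probe of the tile was transcribed in p344 and under 10 in p1087. The fourth, from 114441, was bright in both strains, at 13.43 and 13.39 in p1087 and 14.48 in p344. The 4 even tiles between 2801 and 3040, before *clr3*, were bright as well, and p1087 was above p344 by 1.06 to 1.28 log2 units. The last 2 tiles lay between *atf1* and *clr1*, with 8.81 and 9.25 in p1087 and 7.51 in p344 for the even tile from 53441, and 8.23 and 8.19 in p1087 and 7.11 in p344 for the odd tile from 53801. The odd tile lies in the dim window and the stretch with like strands named above, at 53681.

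Within the slide that holds both strains, p1087 replicate 1 minus p344 was 2.57 for the even tile from 116881 and -1.95 for the odd tile from 113681, a direction that the choice of tiles fixes. Over all tiles, 27 were over 1 log2 unit apart between p1087 replicate 1 and p344, against 236 between the p1087 replicates. Of these 236 tiles, p344 was nearer to p1087 replicate 1 in 222, or 94.1%, against 66.2% of all tiles. p1087 replicate 2 alone was over 2 log2 units above both others in 16 tiles and below both in 0. They were 7 odd tiles between 2801 and 3080, 4 odd and 4 even tiles between 114041 and 114400 and the odd tile from 45841. The odd tile from 2841 was at 9.35 and 12.11 in p1087 and 8.98 in p344, and the odd tile from 114321 at 9.34 and 12.89 in p1087 and 9.14 in p344. The first and second of these places lie next to tiles in which both p1087 arrays stood apart from p344, and the part of the slide in them was not tested.

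**Figure D4:**
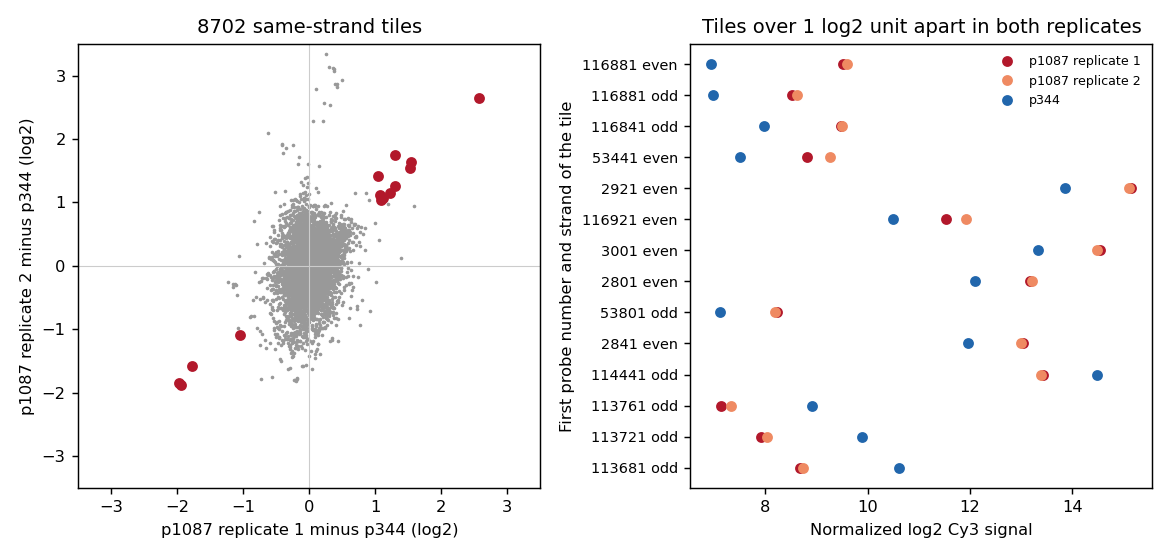
Left, p1087 replicate 1 minus p344 (x axis, log2) against p1087 replicate 2 minus p344 (y axis, log2) for 8702 same-strand tiles, with red points for the 14 tiles in which both p1087 arrays lay over 1 log2 unit from p344 in the same direction. Right, normalized log2 Cy3 signal (x axis) of these tiles on each array, named by first probe number and strand (y axis), from the highest difference, 2.61 for the even tile from 116881, down to -1.92 for the odd tile from 113681.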

How the data were processed

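Members and lists were chosen with earlier results of these data known. The authors scanned the arrays, extracted the spots with Agilent Feature Extraction 10.7.3.1 and deposited median spot and local background intensities without normalization, processed signal intensities and flags. The authors also deposited log2 ratios of mutant over wildtype, which served only to place the genes. Scanner headers and methods give unlike genome builds, and no coordinates are printed. Cy3 intensities were background-corrected by normexp (offset 50), taken to log2 and quantile-normalized over the 3 arrays with limma 3.58.1 in R 4.3.3, leaving out 198, 1047 and 432 outlier spots (p1087 replicates 1 and 2, p344). Shares per strand left out outlier spots, and runs, pairs and blocks used the flags as deposited. Tiles needed 10 probes. In simulated data for p1087 minus p344, with equal noise in all 8702 tiles, 155 of 200 tiles changed by 1 log2 unit were called, and 8 unchanged tiles. On the real arrays the spread between the p1087 replicates differed from tile to tile, and even the tile with a difference of 2.61 was not called. The simulated recovery therefore checks the code and does not show which changes the test could find in these data. Genes were named by extremes of level, strand difference, strain difference and as neighbours of stretches. The alternatives were other flags, gaps, block and tile sizes, limits, background correction, normalization, filters on dim probes, the slide and each array left out. Other steps ran in Python 3.11.15 (pandas 2.3.3, numpy 2.4.6). P-values measure the spread between these arrays, which may be technical. 1 placed gene is not named here and enters only summaries of the placed genes.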

Additional observations from a re-analysis of the deposited data

Results flagged for a closer look

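Probes whose names begin with rTm or randTm enter no comparison of strains, and what they were designed for is not given in the sources used here. Their Cy3 spots were well above background at 24.4% and 13.0% of 1577 probes in p1087 replicates 1 and 2 and at 21.9% in p344, against 0.988% and 1.11% of the negative control spots in p1087 and 0.617% in p344. No group had the 4 samples that a search for outlying samples needs.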

How the results depend on the processing

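No paired analysis was possible because the strains share fewer than 2 replicate numbers. The alternatives for genes with sense above antisense, for tiles over 1 log2 unit apart and for stretches with like strands were added after the values were seen. Calls by adjusted p stayed at 0 for tiles and placed genes under each alternative with a test. The share of transcribed probes, 68.7% on odd and 68.5% on even numbers as a mean over arrays, was 88.1% and 88.2% with the 95th percentile of negative control spots and 85.6% and 85.8% with the weaker scanner flag. Mean run length on odd and even numbers was 12.4 and 12.3 probes with gaps bridged and 12.5 and 12.8 with the negative control limit, against 6.23 and 6.16. Blocks with strands over 2 log2 units apart made up 39.7%, against 47.0% in blocks of 20 numbers, 28.4% in blocks of 80, 68.1% with a limit of 1 and 14.2% with a limit of 3. Silent blocks, 18 as reported, numbered 0 with a limit of 0% and 35 with 20%, and 67 and 3 in blocks of 20 and 80 numbers. Stretches with like strands, 14 as reported, numbered 35 with a limit of 6 blocks and 7 with 10. Tiles over 1 log2 unit apart, 14 as reported, numbered 47 with the scanner's processed signal, 32 with the median over probes and 27 on the slide that holds both strains. The p1087 minus p344 difference of *rix1* turned to -0.0588 with the processed signal, and the cause was not tested. Leaving out each p1087 replicate gave 67.3% to 69.5% on odd and 66.9% to 69.3% on even numbers, run lengths of 6.05 to 6.24 and 5.96 to 6.21, asymmetric blocks of 37.6% to 42.3% and same-strand agreement of 95.7% to 96.9%, sense above antisense for 35 genes each time, and 27 to 213 tiles, the higher without p1087 replicate 1. These tile counts without a replicate compare 1 array with 1, and no test was run on them. Leaving out each array gave 18 to 22 silent blocks and 15 to 20 stretches. Dim spots limit the low levels, where the flag and the signal of background overlap.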
